A study of Mus musculus with 12 samples.

Results

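The 6 mouse genes Fam171b, Cd59a, Wfdc2, BC029722, Cst3 and Ptpmt1 lie on chromosome 2, the chromosome of Nfe2l2, the gene that encodes Nrf2. They were chosen by their measured genotype differences, since their liver transcripts differed between Nrf2 null and wild-type mice both with vehicle and with the compound CDDO-Im. Every probe set whose annotation names 1 of them as its only gene was taken, which gave 8 of the 45101 probe sets on the array. Cd59a and Fam171b have 2 probe sets each and the other 4 genes have 1 each. Genes were compared through their brightest single-gene probe set, 18193 in all, of which 1399 lie on chromosome 2. Because the genotype differences chose the genes, those differences are given as a description without a test.

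Total RNA from livers of male mice was read on 12 one-colour Affymetrix arrays in 4 groups of 3. The groups were wild type given vehicle, wild type given CDDO-Im, Nrf2 null given vehicle and Nrf2 null given CDDO-Im. Dosing was by gavage, CDDO-Im at 30 uM/kg, and the labels state 6 hours for all groups. Age, strain, the design of the null allele and whether each array came from its own animal are not given in the sources used here, so the p-values speak only for the spread among these arrays. All 6 vehicle titles carry a bracketed 2 that no compound title carries, and that mark and the compound cannot be told apart. Values are log2 expression summaries by RMA, so a difference of 1 is a 2-fold change, and levels of different probe sets are not compared with each other.

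Nrf2 is a transcription factor that the adaptor Keap1 holds in check, and that switches on genes of detoxification, glutathione and redox balance through antioxidant response elements. CDDO-Im, a synthetic triterpenoid, is known as a potent activator of Nrf2. A gene knocked out in embryonic stem cells and then bred into another strain stays flanked by chromosome of the stem cell's strain, so a null mouse can differ from wild type in the targeted gene and in the DNA linked to it. Whether loss of Nrf2 or linked DNA set any difference described here was not tested, and the 2 cannot be told apart in a comparison of these genotypes.

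Of the 6 genes, 5 were found among the RefSeq promoter sequences (GRCm38.p6), and Fam171b was not. The promoters below show the core of the antioxidant response element where the letters occur, for Ptpmt1, which was higher in null livers, and BC029722, which was lower, and a promoter without those letters, that of Wfdc2, the member whose level fell with CDDO-Im. Each runs 5′ to 3′ on the gene's strand from 250 bases before the start to 10 after it, in lower case. Capitals mark a match to TGACNNNGC, the element's core, here read on the opposite strand. The Ptpmt1 promoter is chr2:90918041-90918300 on the minus strand, that of BC029722 is chr2:155819223-155819482 on the minus strand, and that of Wfdc2 is chr2:164562465-164562724 on the plus strand.
Ptpmt1: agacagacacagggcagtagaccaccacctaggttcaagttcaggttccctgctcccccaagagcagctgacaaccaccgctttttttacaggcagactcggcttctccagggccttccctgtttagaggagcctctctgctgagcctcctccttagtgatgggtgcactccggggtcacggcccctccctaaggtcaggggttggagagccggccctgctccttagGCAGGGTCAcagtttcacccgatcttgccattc
BC029722: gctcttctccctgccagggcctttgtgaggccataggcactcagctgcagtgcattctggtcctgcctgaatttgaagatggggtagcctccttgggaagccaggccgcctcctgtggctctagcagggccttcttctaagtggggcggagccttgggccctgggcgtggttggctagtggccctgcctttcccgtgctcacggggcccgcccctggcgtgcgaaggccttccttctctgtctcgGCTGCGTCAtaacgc
Wfdc2: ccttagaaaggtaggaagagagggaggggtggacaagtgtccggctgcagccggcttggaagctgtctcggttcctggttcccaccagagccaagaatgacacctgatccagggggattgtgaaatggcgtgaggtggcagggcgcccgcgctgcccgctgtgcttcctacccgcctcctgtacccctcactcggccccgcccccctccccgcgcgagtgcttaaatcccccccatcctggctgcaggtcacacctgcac
The match began 23 bases before the start in Ptpmt1 and 5 bases before it in BC029722. On both strands of the window from 250 bases before to 50 after the start, the core occurred in 2 of the 5 promoters. The same letters occurred in 4071 of all 32851 promoters, or 12.4%, and in 406 of the 2847 on chromosome 2, or 14.3%. A match in a window of this size is a description of letters, and binding was not measured.

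The targeted gene was read first as a check of the labels. Nfe2l2 stood between 8.37 and 9.14 on the 6 wild-type arrays and between 4.44 and 4.96 on the 6 null arrays with its brighter probe set (1416543_at). All 6 null arrays thus fell in the group the labels give. The dimmer Nfe2l2 probe set (1457117_at) ranged from 4.63 to 5.08 in wild type and from 4.77 to 5.19 in null livers, below the median of its array. It did not separate the 6 wild-type from the 6 null arrays. With CDDO-Im alone its null arrays lay above its wild-type arrays, by 0.24 ± 0.11 (adjusted p = 0.486 by limma). Array medians lay between 5.77 and 5.83, and arrays of 1 group correlated at 0.986 to 0.994 on average. Hepatocyte markers, 7 of 8 measured, had a mean between 13.2 and 13.6 on every array. Pancreatic acinar markers, 6 of 8 measured, had a mean of 10.8 on wild-type vehicle replicate 3 and 9.01 on null vehicle replicate 2, against 6.46 to 6.87 on the other 10 arrays. In whole liver, fewer cells of a type and less RNA per cell cannot be told apart.

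Among the members, 4 were lower in null livers (Fam171b, Wfdc2, Cd59a and BC029722) and 2 were higher (Cst3 and Ptpmt1). On the brighter probe set of each gene the 6 wild-type arrays and the 6 null arrays did not overlap. Together with Nfe2l2 they are the 7 chromosome 2 genes called at an adjusted p under 0.05 (limma, Benjamini-Hochberg) with vehicle and with CDDO-Im in the same direction. When only the 6 arrays compared were fitted, the vehicle call was lost for Fam171b (adjusted p = 0.0598 by limma), BC029722 (0.0619) and Ptpmt1 (0.117), which left 3 members called in both. For comparison, 0.39% of all genes were called between genotypes with vehicle, 1.45% with CDDO-Im and 0.121% in both. Separation of the genotype groups in the same direction under both treatments was found for 3.47% of genes. Nothing is read from the members' counts against these shares, since the calls chose them.

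**Figure D1:**
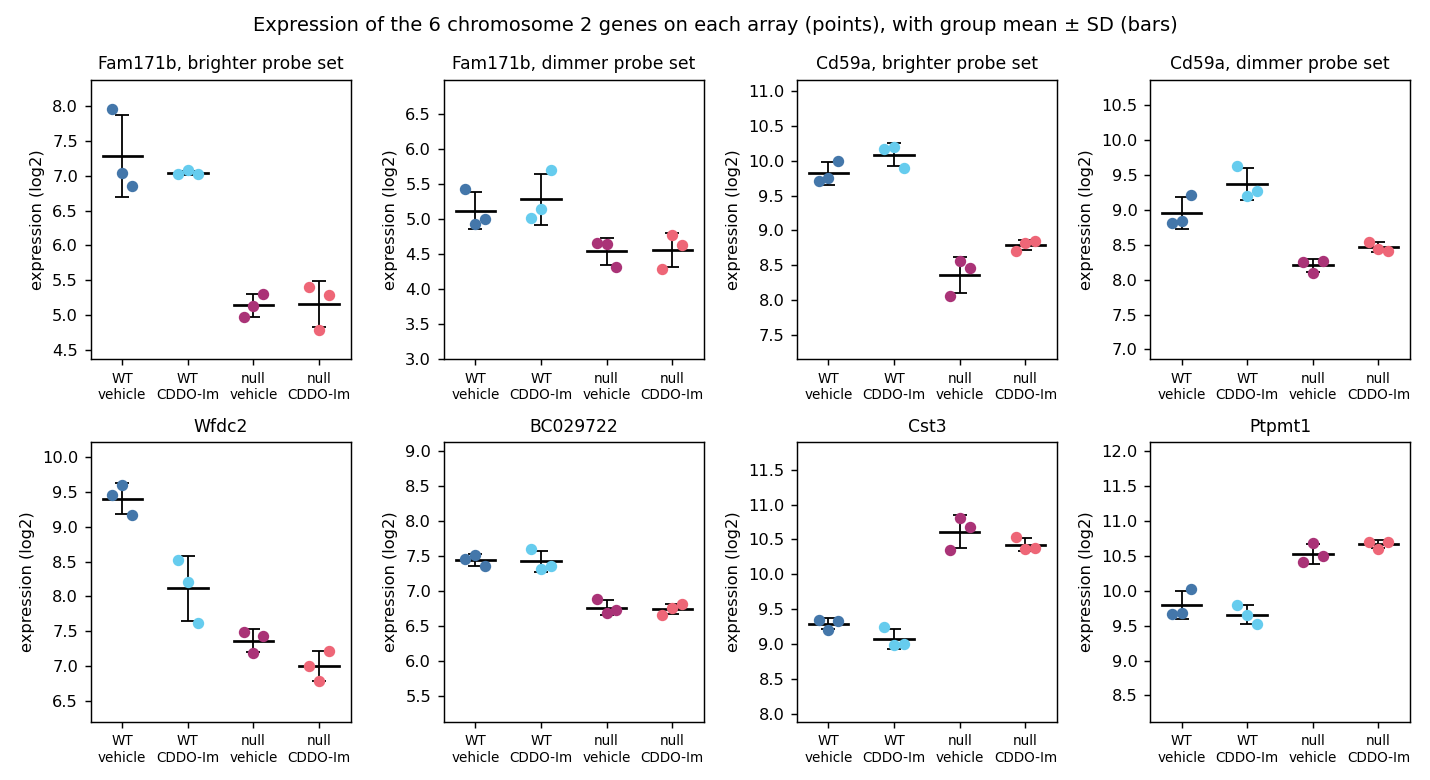
Each point is the log2 expression value of 1 array for 1 probe set, by group on the horizontal axis, and bars give the group mean ± SD over 3 arrays. The vertical axes span the same range in every panel but start at different levels. On the brighter probe set of each gene, null arrays lie wholly below wild type for Fam171b, Cd59a, Wfdc2 and BC029722 and wholly above it for Cst3 and Ptpmt1.

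Cd59a encodes a membrane-anchored inhibitor that stops complement from assembling its membrane attack complex. With vehicle its brighter probe set (1418710_at) read 9.71, 9.75 and 10.001 in wild type and 8.07, 8.56 and 8.46 in null livers. With CDDO-Im it read 10.17, 10.20 and 9.90 in wild type and 8.70, 8.82 and 8.85 in null livers. The lowest wild-type array stood 0.86 above the highest null array. The null livers were lower by a log2 difference of -1.45 ± 0.13 (SE, n = 3 per group) with vehicle, 2.74-fold, and -1.30 ± 0.13 with CDDO-Im, 2.46-fold. The dimmer probe set (1429830_a_at) ran the same way, from 8.82 to 9.63 on wild-type arrays and from 8.10 to 8.54 on null arrays. Its differences were smaller, -0.75 ± 0.13 with vehicle and -0.90 ± 0.13 with CDDO-Im.

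Fam171b, which encodes a membrane protein of the Fam171 family, had genotype differences close to 2 log2 units with either treatment. Its brighter probe set (1454965_at) read 7.95, 7.04 and 6.85 in vehicle wild type and 4.98, 5.14 and 5.31 in vehicle null livers. With CDDO-Im the values were 7.02, 7.08 and 7.03 in wild type and 5.41, 4.80 and 5.29 in null livers. A gap of 1.44 separated the genotypes, although wild-type vehicle replicate 1 stood well above its group, whose SD was 0.59. The differences were -2.14 ± 0.24 with vehicle (-1.80 without that array) and -1.88 ± 0.24 with CDDO-Im, or 4.40-fold and 3.67-fold. All 6 null values lay below the median of their array, so the size of the fold is uncertain. The dimmer probe set (1436350_at) was below the array median on all 12 arrays, at 4.93 to 5.70 in wild type and 4.29 to 4.77 in null livers. Its arrays did not overlap either, with differences of -0.58 ± 0.19 and -0.72 ± 0.19.

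Wfdc2, also known as HE4, encodes a secreted protein with whey acidic protein domains. Its single probe set (1424351_at) read 9.45, 9.59 and 9.16 in vehicle wild type and 7.48, 7.18 and 7.44 in vehicle null livers. With CDDO-Im it read 8.53, 8.21 and 7.62 in wild type and 7.0, 6.79 and 7.22 in null livers. Vehicle wild type was high, null was low under both treatments, and wild type with CDDO-Im lay between them, its lowest array only 0.13 above the highest null array. The genotype difference was -2.03 ± 0.20 with vehicle, 4.09-fold, and -1.11 ± 0.20 with CDDO-Im, 2.16-fold.

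BC029722, a gene known by its cDNA clone, was lower in null livers by the smallest amount among the members. Its probe set (1428442_at) read 7.46, 7.51 and 7.35 in vehicle wild type and 6.88, 6.68 and 6.72 in vehicle null livers. With CDDO-Im it read 7.60, 7.31 and 7.36 in wild type and 6.66, 6.75 and 6.81 in null livers. The difference was -0.68 ± 0.09 with vehicle and -0.68 ± 0.09 with CDDO-Im, or 1.60-fold in both. It also had the smallest spread of the members, a pooled SD within groups of 0.107, against 0.347 for Fam171b, the widest.

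Cst3 encodes cystatin C, a secreted inhibitor of cysteine proteases such as the lysosomal cathepsins. Its probe set (1426195_a_at) read 9.35, 9.20 and 9.34 in vehicle wild type and 10.35, 10.80 and 10.68 in vehicle null livers. With CDDO-Im it read 9.24, 8.99 and 8.999 in wild type and 10.54, 10.36 and 10.37 in null livers. Every null array was above every wild-type array, by at least 1.004. The differences of 1.32 ± 0.11 with vehicle and 1.35 ± 0.11 with CDDO-Im correspond to 2.49-fold and 2.55-fold.

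Ptpmt1 encodes a mitochondrial phosphatase that makes phosphatidylglycerol, a step in the synthesis of cardiolipin, the signature lipid of the inner mitochondrial membrane. Its probe set (1426581_at) read 9.67, 9.68 and 10.03 in vehicle wild type and 10.41, 10.69 and 10.50 in vehicle null livers. With CDDO-Im it read 9.79, 9.65 and 9.52 in wild type and 10.70, 10.60 and 10.70 in null livers. The highest wild-type array and the lowest null array were 0.38 apart. Null livers were higher by 0.74 ± 0.11 with vehicle, 1.67-fold, and by 1.01 ± 0.11 with CDDO-Im, 2.02-fold.

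The adjusted p closest to the threshold belonged to Ptpmt1 with vehicle (0.0206) and Wfdc2 with CDDO-Im (0.0174), both from limma and given only to show where the choice fell. Just outside it were Bcl2l11, which promotes apoptosis, at -0.72 with vehicle and -0.74 with CDDO-Im, Mertk, a receptor for the clearance of dying cells, at -0.78 and -0.85, and Pacsin3 at 0.46 and 0.44. Their larger adjusted p values were 0.0727, 0.0727 and 0.0778.

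Known Nrf2 targets were set beside the members, and most of their genotype differences appeared with the compound. Srxn1, a sulfiredoxin that repairs peroxiredoxins and also a chromosome 2 gene, differed between genotypes by 0.01 ± 0.07 with vehicle and -2.80 ± 0.07 with CDDO-Im. Nqo1, a quinone reductase, differed by -0.28 and -2.31, Gclm, of glutathione synthesis, by -0.31 and -1.01, and Txnrd1, a thioredoxin reductase, by -0.33 and -1.81. Of 23 measured genes in a list of 24 known Nrf2 targets, 1 was lower in null livers with vehicle (Aox1, -1.86, adjusted p = 0.0169 by limma) and 19 with CDDO-Im. Their median difference went from -0.28 with vehicle to -2.13 with CDDO-Im, where the medians over all genes were 0.02 and 0.01. Single targets ranged from -1.86 to 0.89 with vehicle and from -4.36 to 0.05 with CDDO-Im. For the members the vehicle and the compound value stood close together, except in Wfdc2, where the compound value was smaller. The members were chosen by calls in the same direction under both treatments, and the targets were not. Nothing is therefore read from the contrast between members and targets. Keap1 differed by 0.02 with vehicle and -0.32 with CDDO-Im, and was called in neither.

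**Figure D2:**
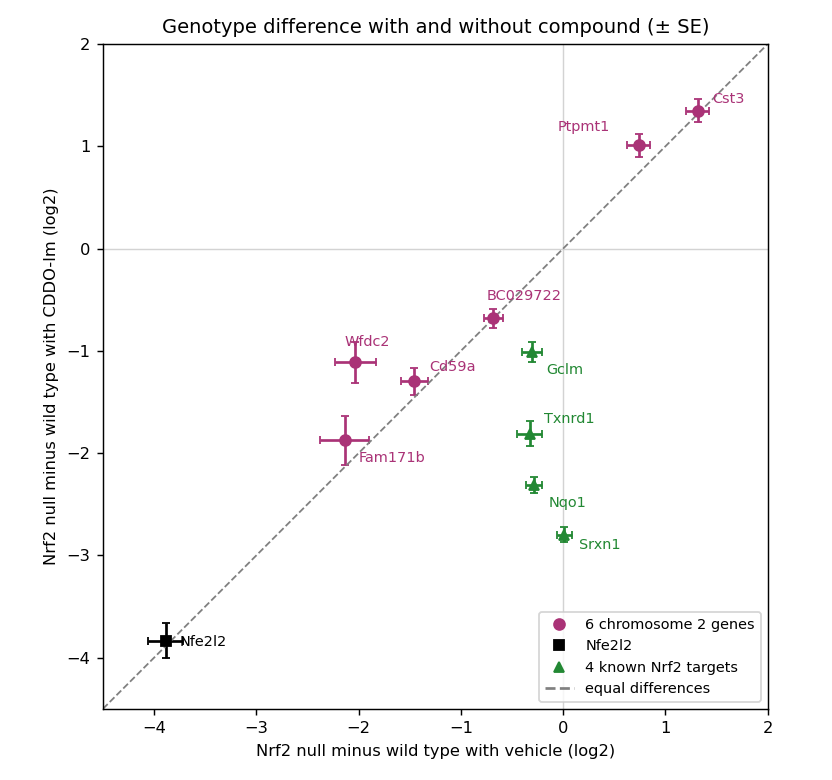
The horizontal axis is the null minus wild-type log2 difference with vehicle and the vertical axis the same with CDDO-Im, each ± SE from the fit over 12 arrays, and the dashed line marks equal differences. The 2 axes use different arrays. The members, which were chosen by calls in both comparisons, and Nfe2l2 lie near the line, with Wfdc2 farther above it. The 4 known Nrf2 targets shown lie below the line, at -0.33 to 0.01 with vehicle and -2.80 to -1.01 with CDDO-Im. Over all 23 measured targets the vehicle differences ran from -1.86 to 0.89.

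Effects of CDDO-Im within a genotype were not used to choose the genes and were tested with limma, adjusted over all 18193 genes. The effect in 1 genotype is not independent of the choice, since both its vehicle and its compound arrays entered the genotype differences. The average of both genotypes is the cleaner test, since the design makes it independent of those differences apart from the shared estimate of the spread. By that average 2 of the 6 members changed, against 10.5% of all genes called. Cd59a rose, as did 5.62% of genes, and Wfdc2 fell, as did 4.84%. In wild type 1 of 6 changed, Wfdc2, against 1.82% of genes called and 0.846% lower. In null livers 0 of 6 passed limma's threshold, against 5.9% of genes, and 1 of 6, Cd59a, had an unadjusted p under 0.05, as did 3528 of all genes.

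Wfdc2 fell with CDDO-Im. In wild type the 3 compound arrays lay below the 3 vehicle arrays, and the effect was -1.28 ± 0.20 (95% interval -1.72 to -0.84), 2.43-fold lower, with adjusted p = 0.00759 by limma. Groups without overlap, in either direction, were found for 16.6% of genes in that comparison. In null livers the effect was -0.36 ± 0.20 (interval -0.80 to 0.08, adjusted p = 0.367 by limma), and 1 compound array overlapped the vehicle arrays. Averaged over the genotypes it was -0.82 ± 0.14, adjusted p = 0.00426 by limma. The wild-type effect minus the null effect was -0.92 ± 0.29, which is the same number as the change in the genotype difference and is given as a description. The wild-type call was lost when the 2 wild-type groups were fitted alone (adjusted p = 0.0751 by limma) and held when any 1 array was left out.

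Cd59a rose with CDDO-Im, by a smaller amount. Its brighter probe set rose by 0.35 ± 0.09 on average over the genotypes (interval 0.14 to 0.55, adjusted p = 0.0346 by limma), and its dimmer one by 0.33 ± 0.09 (adjusted p = 0.0392 by limma over all 34945 single-gene probe sets, of which 8.69% were called). The brighter probe set's effects were 0.27 in wild type (adjusted p = 0.408 by limma) and 0.43 in null livers (adjusted p = 0.0844 by limma), where the compound arrays all lay above the vehicle arrays. In null livers 23.1% of genes had groups without overlap in either direction. The averaged call rested on many arrays. It was lost without wild-type vehicle replicate 1 (0.32, adjusted p = 0.0919 by limma) or 2 (0.33, 0.0849), without wild-type CDDO-Im replicate 1 (0.33, 0.0760) or 2 (0.32, 0.0829), without null vehicle replicate 1 (0.27, 0.0572), and without null CDDO-Im replicate 2 (0.34, 0.0743) or 3 (0.33, 0.0812).

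For the other 4 members no effect of the compound passed limma's test. BC029722 moved by -0.02 in wild type (95% interval -0.22 to 0.18, adjusted p = 0.965 by limma) and by -0.02 in null livers (adjusted p = 0.938 by limma). Fam171b differed by -0.24 in wild type (interval -0.76 to 0.28) and 0.02 in null livers (interval -0.50 to 0.54), and its dimmer probe set by 0.17 and 0.02. Cst3 was at -0.22 in wild type and -0.19 in null livers, with an average of -0.20 ± 0.08 (adjusted p = 0.154 by limma). Without null vehicle replicate 1 that average was -0.27 with adjusted p = 0.0369 by limma. Ptpmt1 was at -0.14 in wild type and 0.14 in null livers, an average of -0.00 ± 0.08. The 95% intervals of these averages reached -0.38 for Cst3 and 0.17 for Ptpmt1, so effects of that size are not excluded by the data.

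**Figure D3:**
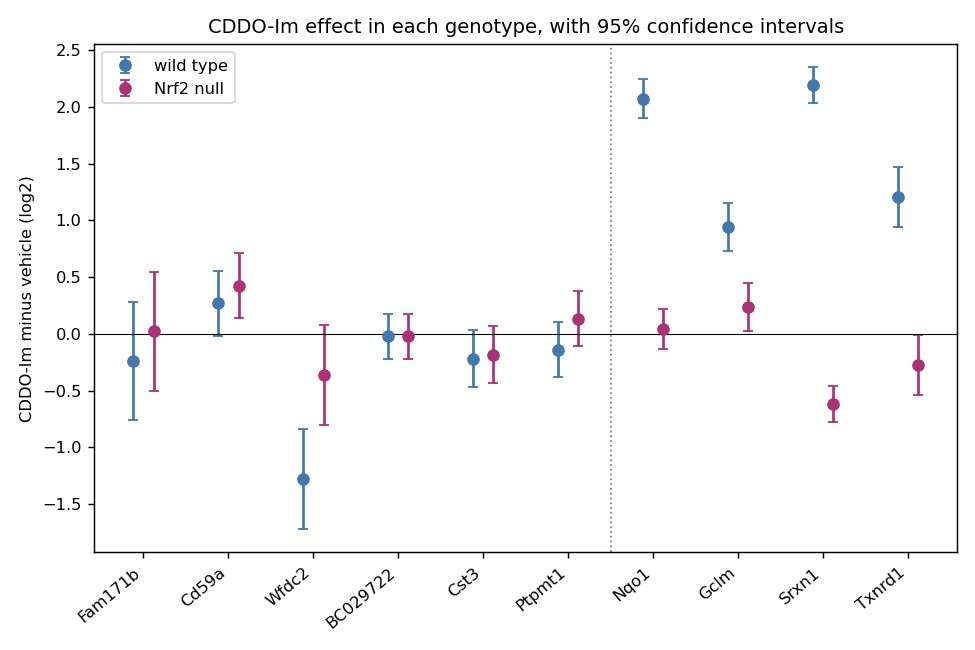
Points are the log2 difference CDDO-Im minus vehicle in wild type and in Nrf2 null livers, with 95% confidence intervals, for the members (left of the dotted line) and 4 known Nrf2 targets (right of it). Wfdc2 stands at -1.28 in wild type and -0.36 in null livers, the other members stay between -0.24 and 0.43, and the targets rise by 0.94 to 2.19 in wild type.

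Markers of other cells were read beside these effects. Cholangiocyte markers matter for Wfdc2, an epithelial gene. The 6 of 8 measured had a mean between 5.77 and 5.99 on all 12 arrays, close to the array median, with Krt7, Sox9 and Cftr below it, and none was called in any genotype or compound comparison. Of the adipocyte markers 4 of 6 were measured, with Adipoq and Lep below the array median, and 1 of the 4 was called with the compound in each genotype. That gene was Fabp4, a fatty acid binding protein, which fell by 3.73 in wild type (adjusted p = 0.0217 by limma) and fell by 5.74 in null livers (adjusted p = 0.00407 by limma). The median effect over the 4 was 0.05 in wild type and -0.02 in null livers, although the mean of the list was lower with CDDO-Im, at 6.76 to 7.32 against 5.85 to 6.54 in wild type and 7.16 to 7.39 against 5.83 to 5.91 in null livers. Its part in the compound effects was not tested. Kupffer cell markers, all 8 measured, had means of 8.14 to 9.03 in vehicle wild type, 8.49 to 9.14 in wild type with CDDO-Im, 7.82 to 8.50 in vehicle null and 8.48 to 8.56 in null with CDDO-Im, so the genotype groups overlapped, and 1 was called between genotypes with CDDO-Im. With vehicle, the means of 3 lists also separated the genotypes, with no gene of these lists called. Stellate cell markers, all 7 measured with Lrat below the array median, stood at 7.56 to 7.79 in wild type and 7.19 to 7.52 in null livers. Neutrophil markers, all 7 measured with S100a8 below the array median, stood at 6.44 to 6.52 in wild type and 6.61 to 6.85 in null livers. Hepatocyte markers stood at 13.32 to 13.47 and 13.501 to 13.52. With CDDO-Im these 3 lists overlapped between genotypes, while acinar markers (6.46 to 6.74 in wild type, 6.79 to 6.87 in null) and erythroid markers (6.03 to 6.30 and 6.31 to 6.43) did not. Of the erythroid markers 3 of 5 were measured, with Hba-a1 and Slc4a1 below the array median, and the 2 ranges nearly touched, at 6.300 and 6.312. The part of these lists in the genotype differences was not tested. Without the 2 arrays high in acinar transcripts all 6 members were called in both genotype comparisons. Nothing is read from that, since these calls, made with the remaining arrays included, chose the members. In the same setting Cd59a was also called in null livers with CDDO-Im (0.52, adjusted p = 0.0355 by limma).

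Genes related to each member by family or pathway were read beside it. Over all genes 0.39% were called between genotypes with vehicle and 1.45% with CDDO-Im, so nothing is read from the absence of calls in these short lists. Some listed genes had a mean level below the array medians of 5.77 to 5.83, where a difference could go unseen. They were Cst6 (4.49), Cst7 (5.55), Ctsk (5.20), Cd55 (4.81), Cd55b (3.56), Cds1 (5.51), Pld6 (5.19) and Fam171a1 (5.57). Apart from Cst3, 11 cystatins, cysteine cathepsins and the cathepsin-like protease legumain were measured, and none was called between genotypes. The nearest to a call was Ctsz, another chromosome 2 gene, at -0.45 with vehicle and -0.48 with CDDO-Im (adjusted p = 0.0672 by limma). Ctsl fell by 0.50 with the compound in null livers (adjusted p = 0.0431 by limma). Apart from Cd59a, 9 complement regulators were measured, and none was called between genotypes. C4bp, a fluid-phase inhibitor of complement, fell with CDDO-Im in both genotypes, by 0.68 in wild type and 0.64 in null livers (adjusted p = 0.00546 and 0.00958 by limma).

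Of the whey acidic protein domain genes, 8 besides Wfdc2 were measured, 6 of them on chromosome 2, and none was called between genotypes or with the compound. With the compound 1.82% of all genes were called in wild type and 5.9% in null livers. Wfdc15b, at 5.81, stood at the level of the array medians. Their genotype differences ran from -0.12 to 0.17 with vehicle and from -0.10 to 0.22 with CDDO-Im. Of 11 genes of cardiolipin synthesis and remodelling besides Ptpmt1, 1 was called. Cds2, a chromosome 2 gene whose enzyme makes CDP-diacylglycerol for this pathway, rose by 1.06 with CDDO-Im in wild type (adjusted p = 0.000615 by limma). Its genotype difference was -0.01 with vehicle and -1.13 with CDDO-Im (adjusted p = 0.000376 by limma). Fam171a1 and Fam171a2, the other members of the Fam171 family, had genotype differences between -0.08 and 0.01.

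All 6 members follow Nfe2l2 in the order of tested genes on chromosome 2, which has 499 tested genes before it and 899 after. Fam171b is the nearest, 33 places on, then Ptpmt1 at 73, Cd59a at 151, Cst3 at 513, BC029722 at 621 and Wfdc2 at 726. These places leave out genes that were not tested. Among all protein-coding genes of the annotation, Fam171b stands at place 36, Ptpmt1 at 296 and Cd59a at 370. By that count Cst3 is at 780, BC029722 at 906 and Wfdc2 at 1014. Places below are again those among tested genes. Srxn1, at 545, lies between Cst3 and BC029722. No gene before Nfe2l2 was called in both genotype comparisons. Of the 499 before it 0 were called with vehicle and 2 with CDDO-Im, against 7 and 21 of the 899 after it. Over all genes 0.39% were called with vehicle and 1.45% with CDDO-Im. The 6 members, chosen by these calls, are among the 7 and the 21, and Atg13 is the other vehicle call. Nothing is read from this split, since the choice of the members shapes it.

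No nearest tested gene of a member, on either side, was called between genotypes, and none of the 4 tested genes on each side of Nfe2l2 was. Over all genes 0.39% were called with vehicle and 1.45% with CDDO-Im, so nothing is read from this. Several had a mean level below the array medians of 5.77 to 5.83, where a difference could go unseen. Around Nfe2l2 these were Hoxd3os1 (5.29), Hoxd3 (5.06), Hoxd1 (4.26), E030042O20Rik (4.05) and Ttc30a2 (3.60). Beside members they were Zswim2 (5.19), A930018P22Rik (4.48), Cst10 (5.23) and Wfdc6a (5.34). Mtx2, next to Nfe2l2, was -0.27 with vehicle and -0.33 with CDDO-Im, without overlap of the genotypes, and the gene after Nfe2l2, E030042O20Rik, was at 0.01 and -0.05. Ttc30b, 3 places after Nfe2l2, was at -0.13 with vehicle and 0.63 with CDDO-Im, where the genotypes did not overlap (adjusted p = 0.148 by limma). Itgav and Zswim2 flank Fam171b and were at -0.19 and -0.01 with vehicle, 0.06 and -0.04 with CDDO-Im. Fbxo3, beside Cd59a, was at -0.54 with vehicle, without overlap (adjusted p = 0.146 by limma), and 0.14 with CDDO-Im. Kbtbd4 and Celf1, on either side of Ptpmt1, were at -0.02 and -0.40 with vehicle and 0.02 and -0.19 with CDDO-Im. Eif6, beside BC029722, was at -0.04 with vehicle and -0.43 with CDDO-Im, without overlap and in the direction of BC029722 (adjusted p = 0.244 by limma). Mmp24, on its other side, was at 0.12 and -0.01. Cstdc2 and Cst10, on either side of Cst3, and Pigt and Wfdc6a, around Wfdc2, lay between -0.05 and 0.19 under both treatments.

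Counting genes whose genotype groups did not overlap in the same direction under both treatments gave a broader view, with 3.47% of all genes as the background. Among the 100 tested genes that follow Nfe2l2 the share was 12%, Fam171b and Ptpmt1 included, and in the other windows of 100 it was 1.01% to 7%. The 100 genes just before Nfe2l2 had 2%. Of the 10 genes in that first window that are no members, 8 were higher and 2 lower in null livers. Of the 8, 6 follow Ptpmt1 closely, with Gm39874 at place 79 (0.33 with vehicle, 0.24 with CDDO-Im), Pacsin3 at 86, Arfgap2 at 87 (0.51 and 0.66), Atg13, of autophagy, at 94 (0.50 and 0.16), Harbi1 at 95 (0.49 and 0.40) and Ambra1, also of autophagy, at 96 (0.33 and 0.62). These genes were singled out after their values were seen, and no test was made of their grouping.

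**Figure D4:**
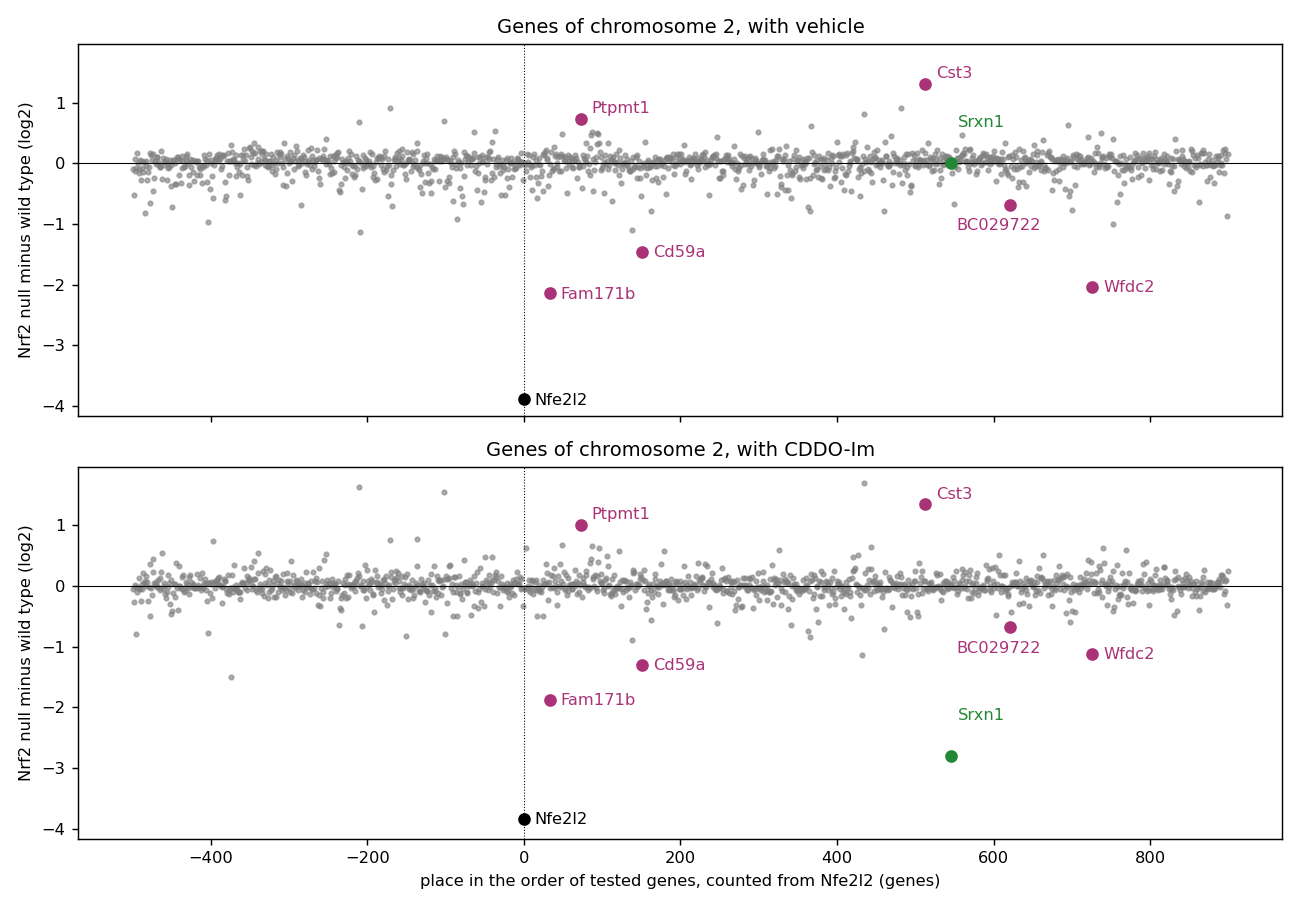
Each point is a tested gene of chromosome 2, placed by its order from Nfe2l2 (in genes, not in bases), with the null minus wild-type log2 difference on the vertical axis, vehicle above and CDDO-Im below. Purple marks the 6 members, black Nfe2l2 and green Srxn1. The members all lie to the right of Nfe2l2, at places 33 to 726, and most genes around them lie near 0.

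Over the genome, chromosome 2 held 7 of the 22 genes called in both genotype comparisons, or 0.5% of its 1399 genes. Among the other 16794 genes, those without a place in the annotation included, the share was 0.0893%. The 7 are the targeted gene Nfe2l2 and the 6 members, which were chosen by this call, so nothing is read from the share. Without Nfe2l2 the number called equals that of chromosome 7. Chromosome 7 came next with 6 of 1413 genes, 0.425%, then chromosome 1 with 3 and chromosome 15 with 2. Most genes of chromosome 2 were not called. Their median size of difference was 0.09 with vehicle and 0.08 with CDDO-Im, the same as over all genes.

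Genes with the most similar profile over the 12 arrays were found by Pearson correlation, as a description. For Fam171b they were Josd2 (r = 0.965), Nfe2l2 (0.944) and Mfsd2a (0.927), and for BC029722 Josd2 (0.967), Nfe2l2 (0.950) and Fam171b (0.926). Cd59a was most like Cyp2d13 (0.960), Nfe2l2 (0.955) and Slc4a4 (0.945). Cst3 was most like Ctse (0.966), Ptpmt1 (0.960) and Vcpkmt (0.949), and Ptpmt1 like Cst3 (0.960), Akr1e1 (0.939) and Hal (0.937). These values include the genotype difference that chose the members. Wfdc2, with its fall under the compound, was most like Fign (0.910), Cd55 (0.902) and Chm (0.892), and Nfe2l2 was not among its first 3. Within groups, after group means were taken away, the 15 pairs of members correlated between -0.349 and 0.789 with a median of 0.041. The highest was Cd59a with Ptpmt1, a pair that differs between genotypes in opposite directions.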

How the data were processed

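Per the labels, biotin-labelled liver RNA was hybridised to 12 one-colour Affymetrix arrays, in 4 groups of 3 taken from the labels alone. The authors deposited log2 values made with RMA, per the submitters' processing notes, with the version not given in the sources used here. Array number limits the precision. Values were used as deposited. Of 45101 probe sets 64 were controls, 34945 named 1 gene, 932 several and 9160 none. A gene was its brightest single-gene probe set, which left 18193 genes, of which 18032 have a place in the GRCm38.p6 annotation. That annotation served for gene order alone.

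One mean per group was fitted with limma 3.58.1 (R 4.3.3, statmod 1.5.0, residual df 8, prior df 3.81), two-sided. Calls were made at a Benjamini-Hochberg adjusted p under 0.05. Second probe sets of the members come from a fit of all 34945 single-gene probe sets. On simulated data of 18193 genes, differences of 1 log2 were recovered in 92% of changed genes for the vehicle genotype comparison, 94% for CDDO-Im in wild type and 97% for its average. The simulated noise was normal and independent between genes and arrays, without acinar-high arrays. Changed genes were drawn from all genes whatever their level. These shares therefore check the fit and do not give the recovery on the real arrays.

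The members and gene lists were chosen with earlier results of these data known. The text names the members, Nfe2l2, Nqo1, Gclm, Srxn1, Txnrd1, Keap1, the 3 genes most correlated with each member, nearest neighbours, the chromosome 2 genes called in both genotype comparisons, and up to 3 genes per list by adjusted p. Outside that rule, Bcl2l11, Mertk and Pacsin3 show the values just outside the threshold, and Gm39874, Arfgap2, Atg13, Harbi1, Ambra1, S100a8, S100a9 and Fabp4 were chosen after their values were seen. Some cell type markers and list genes at or below the array median are named too. The lists were known Nrf2 targets, cystatins and cathepsins, complement regulators, whey acidic protein domain genes, cardiolipin synthesis and the Fam171 family. Marker lists of 10 cell types were read, and those of endothelial and lymphoid cells are given in the closing section. Alternatives covered normalization, the choice of probe set, filters, weights, blocks, thresholds and left-out arrays.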

Additional observations from a re-analysis of the deposited data

How the results depend on the processing

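Across 24 alternatives, of 852 member values 10 compound effects lost a call, 3 gained one and 3 values moved by more than the spread. The sign changed in 33, all of them compound effects (20) or genotype-by-compound differences (13) that were called in neither setting and reached at most 0.10 on the other side of 0, and in 0 genotype differences. With 3 arrays a group, counts of calls moved far more than the members' values. Genes called between genotypes with vehicle numbered 71, against 18 when only the compared arrays were fitted, 1477 with array weights, 16 at an adjusted p under 0.01 and 117 without the 2 acinar-high arrays (19 to 219 with 1 array left out, the highest without wild-type vehicle replicate 3). With CDDO-Im they numbered 263, against 443 over every probe set, 123 at 0.01 and 411 without the acinar-high arrays (151 to 464). The compound called 332 genes in wild type, against 545 over every probe set, 110 for the compared arrays only, 2023 with weights, 109 at 0.01 and 1293 without the acinar-high arrays (104 to 1385). In null livers it called 1074, against 1897 with weights, 97 at 0.01 and 624 with a 1.5-fold minimum (97 to 1615). Its average called 1903, against 3037 over every probe set, 3280 with weights, 726 at 0.01 and 618 with the 1.5-fold minimum (1146 to 2630). Genes called in both genotype comparisons numbered 7 on chromosome 2, against 4 with the compared arrays alone and 15 with weights (5 to 11), and 15 elsewhere, against 23 over every probe set, 5 for the compared arrays only, 94 with weights, 4 at 0.01 and 33 without the acinar-high arrays (6 to 49). Members called in both numbered 6, against 3 (Cd59a, Cst3 and Wfdc2) with the compared arrays alone (4 to 6). With 1 array left out, the vehicle call was lost for Ptpmt1 without wild-type vehicle replicate 1 or 2 or null vehicle replicate 2 and for BC029722 without null vehicle replicate 2, and the CDDO-Im call for Wfdc2 without replicate 1 or 2 of either CDDO-Im group. For the compound the members' count was 1 in wild type, against 0 with the compared arrays alone (1 to 1), 0 in null livers, against 1 without the acinar-high arrays (0 to 0), and 2 for the average, against 1 at 0.01 and 1 with the 1.5-fold minimum (1 to 2). With weights Fam171b stood at -2.55 and Ptpmt1 at 0.89 between genotypes with vehicle, and the average effect on Cst3 was -0.25 and passed. The cause of these shifts was not tested. Whether replicate numbers pair samples was not settled. Of 18 same-number correlations of deviations, 4 exceeded 0.1 (range -0.300 to 0.278), with no different-number pairs set beside them. With the replicate number as a block, 80 and 231 genes were called between genotypes and 323 and 1000 with the compound in wild type and null livers, and the block changed no call of a member.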

Other observations

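Of the 23 measured Nrf2 targets, 20 rose with CDDO-Im in wild type, with a median effect of 2.19, and in null livers 10 rose and 1, Srxn1, fell, with a median of 0.32 (limma calls, where the medians over all genes were 0.01 and -0.00). In null livers Srxn1 fell by 0.62 (adjusted p = 0.00405 by limma), while the detoxifying transferase gene Gsta2 rose by 3.31 (adjusted p = 0.00407 by limma).

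The remaining marker lists showed these means. Lymphocyte markers, 4 of 6 measured, ranged from 6.03 to 6.29 over the 12 arrays, with none called. Endothelial markers, all 7 measured, stood at 7.67 to 7.90 in vehicle wild type and 7.94 to 8.06 in wild type with CDDO-Im, without overlap, and 1 was called there and 1 between genotypes with CDDO-Im. Neutrophil marker means were 6.61 to 6.85 in vehicle null livers and 6.36 to 6.45 with CDDO-Im, where S100a8 (-1.27, adjusted p = 0.0110 by limma) and S100a9 (-0.95, adjusted p = 0.0276 by limma) were called.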
